A study of Drosophila melanogaster with 36 samples.

Results

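The genes described here encode the nuclear subunits of the oxidative phosphorylation complexes, measured in brains of wandering third-instar larvae of Drosophila melanogaster. They were chosen by gene symbol alone, as nuclear genes whose symbols begin with ND-, SdhA to SdhD, UQCR-, COX4 to COX8 or ATPsyn, with ATPsynepsilonL and ATPsynGL left out. The rule gave 85 of the 17606 genes in the table. Of these, 22 are testis-type paralogs, whose symbols carry a final L, and they are described apart. The other 63 are the subunit genes proper, 34 of complex I, 4 of complex II, 6 of complex III, 8 of complex IV and 11 of complex V. A filter on low counts left 62 of the 63 and 11 of the 22 for testing. Subunits with other kinds of names, such as blw, fall outside the rule and appear below as a neighbouring list.

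Polyadenylated RNA was sequenced in 6 genotypes and both sexes, with 3 libraries in each of 12 groups, from larvae raised at 25 °C. H3.3WTH3.2K36R carries arginine in place of lysine 36 in histone H3.2, the form of H3 deposited during DNA replication, and is compared with H3.3WTH3.2HWT. H3.3K36RH3.2HWT carries the same change in the variant H3.3, which is deposited throughout the cell cycle, and is compared with H3.3CtrlH3.2HWT. Set21 is an allele of Set2, the gene for the enzyme that trimethylates this lysine, and is compared with yw. The design describes the controls as matched for genetic background, and the 3 comparisons share no libraries. Below, the comparisons are called H3.2K36R, H3.3K36R and Set2. The H3.3 gene His3.3A was at 65.6 to 69.4 CPM in the group means of H3.3K36RH3.2HWT and of its control H3.3CtrlH3.2HWT alike, against 249 to 353 CPM in the other groups. The H3.3K36R comparison is therefore made within that low state.

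Oxidative phosphorylation passes electrons from NADH at complex I and from succinate at complex II through complex III to oxygen at complex IV. Complex V, the ATP synthase, uses the proton gradient that this builds to make ATP. Most subunits are encoded in the nucleus and are assembled with a few made from mitochondrial DNA. Mature neurons depend heavily on the pathway. Some of the subunit genes lie on the X chromosome, whose transcription is raised in male flies by the dosage compensation complex.

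Reads counted in genes ran from 82.48 to 143.8 M per library. Levels are CPM, counts scaled to a common library size with TMM factors, listed in the order of replicates 1, 2 and 3. Fold changes are log2 values, mutant minus control unless stated, with their SE from an edgeR quasi-likelihood fit over 12167 genes. A gene is called where its Benjamini-Hochberg adjusted p over those genes is under 0.05. The labels do not state if the 3 libraries of a group stem from different animals, so p-values measure the spread between these libraries, which may be technical. In whole brains, fewer cells of a type and less RNA per cell cannot be told apart. Set2 stood at 29.4, 27.8 and 29.4 CPM in Set21 males against 199, 195 and 200.3 in yw males, and at 31.3, 33.3 and 31.7 in Set21 females against 181, 184 and 189 in yw females. roX2, an RNA of the dosage compensation complex, ran from 26.8 to 73.8 CPM in male libraries and from 0.0413 to 15.5 CPM in female libraries. roX1, of the same complex, ran from 1889 to 3125 CPM in male libraries and from 184 to 939 CPM in female libraries. Among female groups the mean of each was highest in the H3.3WTH3.2HWT controls. There roX2 stood at 7.52, 15.5 and 9.94 CPM and roX1 at 563, 939 and 683 CPM. The part of this in the female results was not tested.

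In the 18 control libraries, levels per kilobase of exon differed widely within a complex. In complex V, ATPsynC, the subunit of the rotating membrane ring, stood at 531 ± 23.6 CPM per kb (SD, n = 18). ATPsynbeta, the catalytic subunit, stood at 359 ± 12.6 CPM per kb. ATPsynC and ATPsynbeta were the highest of all the subunit genes. ATPsyndelta, of the central stalk, was the lowest of complex V by this measure at 31.4 ± 1.41 CPM per kb. That rank rests on its merged exon length of 3817 bp, the longest of complex V. Before division by length it stood at 120 CPM, above ATPsynCF6 at 78.7 and ATPsynE at 80.0 CPM. In complex IV the range ran from COX5B at 76.7 ± 4.93 to COX5A at 186 ± 10.2 CPM per kb. In complex III it ran from UQCR-6.4 at 30.3 ± 2.80 to the core protein UQCR-C1 at 124 ± 9.13 CPM per kb. Complex II spanned less, from SdhD, a membrane anchor, at 38.2 ± 2.02 to SdhB, the iron-sulfur subunit, at 66.4 ± 4.86 CPM per kb. In complex I the highest was ND-MLRQ at 134 ± 5.22 CPM per kb, whose mammalian counterpart NDUFA4 is assigned to complex IV. The lowest clearly expressed gene of complex I was ND-B14.5A at 19.8 ± 1.64 CPM per kb.

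A pair of complex I genes stood outside this range. ND-MNLL had 0 reads in all 36 libraries, and its exons lie wholly within those of CG45089, which also had 0 reads. ND-B8 had 429 reads over all libraries, its control level was 0.21 ± 0.16 CPM per kb, and no mutant comparison called it. UQCR-14 is overlapped over all of its exons by CG32576 on the other strand. The strand setting of the counting is not stated in the material used, so reads of these overlapping genes may be shared. CG32576 stood between 9.33 and 11.1 CPM in the group means, and UQCR-14 at 36.5 to 54.2 CPM in single libraries. The 13 coding genes of the mitochondrial genome are listed at 0 in every library, so the subunits they encode are not described here.

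Control males and females differed in few of these genes. Of 62 subunit genes 3 were higher in males and 0 were lower, against 8.14% of all genes called, with a median log2 difference of -0.02. Over all 12167 genes 383 were higher in males and 607 lower. The 3 higher subunit genes were all X-linked members of complex I. ND-75, an iron-sulfur subunit, differed by 0.12 ± 0.0265 (adjusted p = 0.00308). ND-18 differed by 0.13 ± 0.0323 (adjusted p = 0.00694) and ND-B18 by 0.16 ± 0.0372 (adjusted p = 0.00464), both accessory subunits. Of all X-linked genes 9.18% were higher and 24.8% lower in control males.

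The control strains differed more. Against yw, 33 of 62 subunit genes were lower in H3.3WTH3.2HWT and 0 were higher, 53.2% against 39.3% of all genes called, with a median of -0.08. Over all 12167 genes 2451 were higher and 2325 lower there. Among the lower subunit genes were ND-B15 (-0.25 ± 0.0314, adjusted p = 3.55e-07), SdhB (-0.21 ± 0.0284, adjusted p = 1.35e-06), COX6B (-0.16, adjusted p = 7.25e-05) and COX5A (-0.14 ± 0.0263, adjusted p = 0.000146). Between H3.3CtrlH3.2HWT and H3.3WTH3.2HWT, 1 gene was higher and 5 were lower in the former, against 11.6% of all genes called. ND-18 was the higher gene (0.14 ± 0.0395, adjusted p = 0.0173), and ATPsynE, of the membrane part of the ATP synthase, was among the lower (-0.13 ± 0.0335, adjusted p = 0.0078). The ND-18 call was lost without H3.3CtrlH3.2HWT female or male replicate 2 (adjusted p up to 0.0652). That count of 6 went to 2 without H3.3WTH3.2HWT female replicate 1. It was 3 when fitted on the compared libraries alone, and 3 without H3.3WTH3.2HWT male replicate 1, H3.3CtrlH3.2HWT female replicate 1 or H3.3CtrlH3.2HWT male replicate 3. These control libraries also enter the mutant comparisons, so the results are not independent. Cell type markers moved with the control strain too. Against yw, all 6 ring gland and all 6 germline markers were higher in H3.3WTH3.2HWT, as were 3 of 6 fat body, 3 of 6 hemocyte and 3 of 6 disc markers. Of the neural stem cell markers 3 of 6 were lower there, with 3 of 5 glial, 2 of 6 neuronal and 2 of 6 disc markers. The part of these cell types in the difference between strains was not tested.

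**Figure D1:**
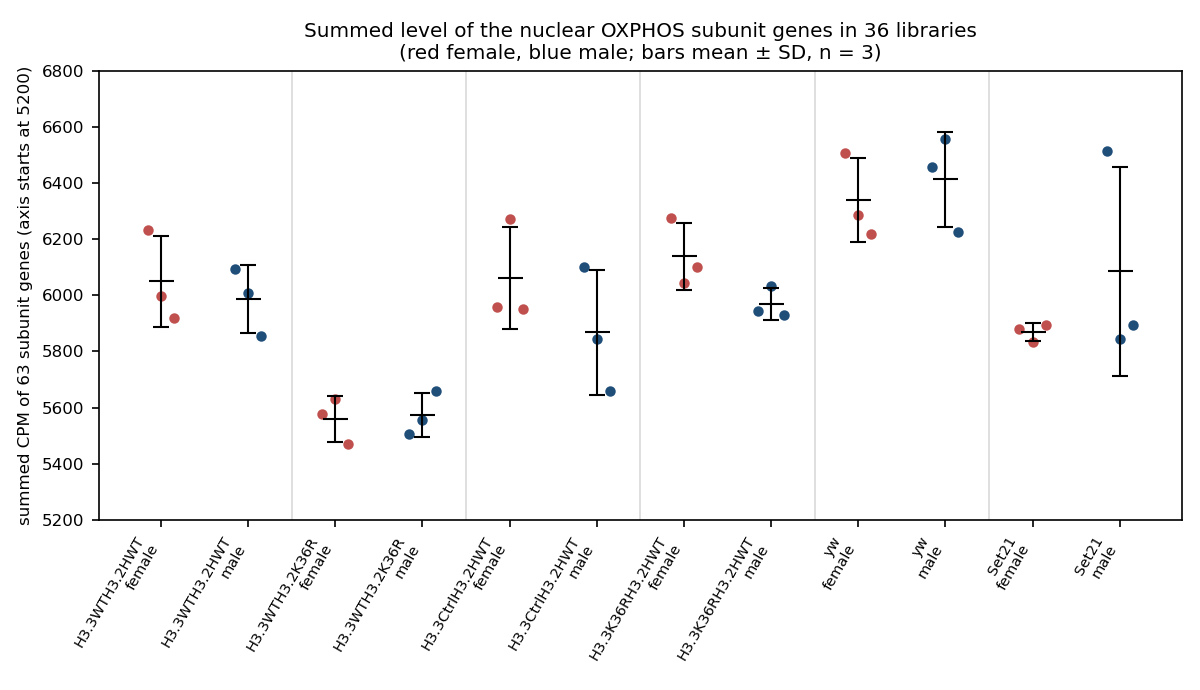
Summed CPM of the 63 subunit genes (y axis, not starting at 0) in each of 36 libraries (points, red female, blue male), with the mean and SD of 3 libraries in each of 12 groups (x axis). The H3.3WTH3.2K36R libraries lie at 5470.4 to 5658, and the yw libraries at 6221 to 6559 CPM.

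Summed over the 63 genes, H3.3WTH3.2K36R had the lowest mean levels of the 12 groups. The sums were 5504, 5554 and 5658 CPM in its males against 6095, 6009 and 5855 in control males. In females they were 5577, 5632 and 5470.4 CPM against 6234, 5998 and 5921. Mutant and control libraries did not overlap in either sex, and complex V differed by the most CPM, at 2613 ± 40.1 (SD, n = 3) in mutant males against 2905 ± 49.9 in control males. Set21 females, at 5881, 5833 and 5894 CPM, lay below yw females at 6509, 6289 and 6221. Among Set21 males, at 6514, 5846 and 5896 CPM, replicate 1 stood apart and overlapped with yw males at 6458, 6559 and 6227. H3.3K36RH3.2HWT overlapped with its control in both sexes.

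**Figure D2:**
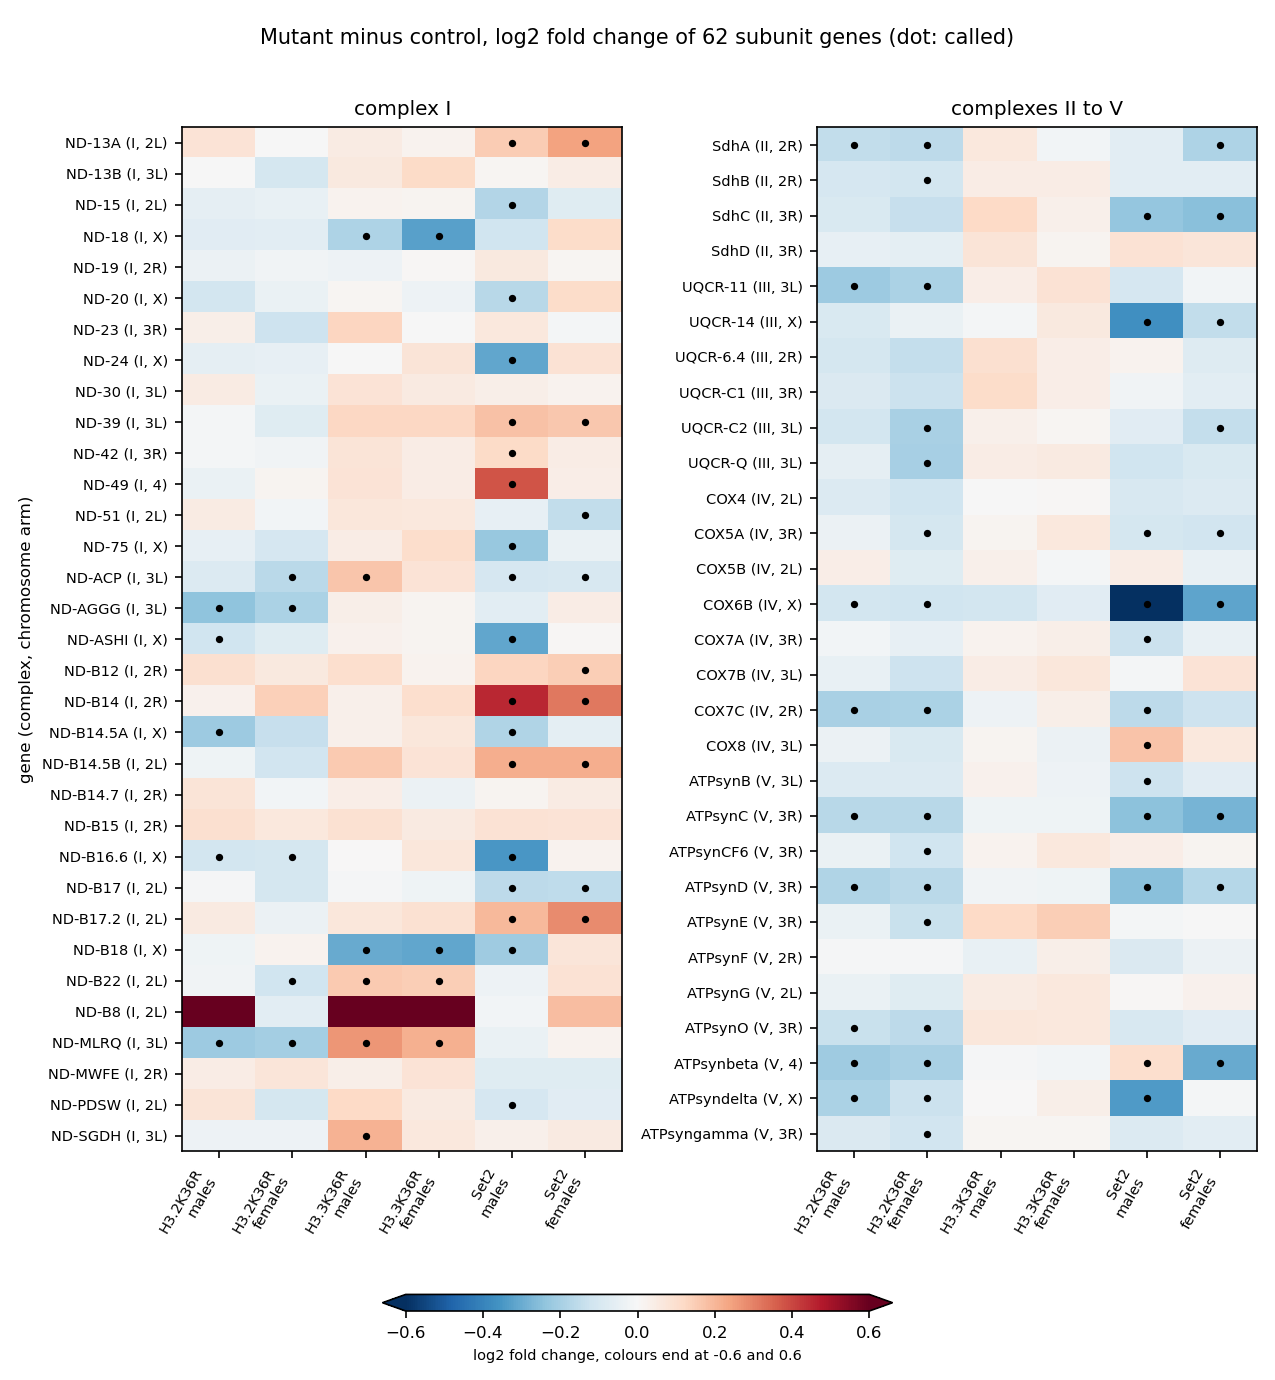
Log2 fold change (colour, mutant minus control) of the 62 tested subunit genes (rows) in the 6 mutant comparisons (columns), with dots on called genes and colours ending at -0.6 and 0.6. Called genes of H3.2K36R are all lower, and ND-B8 is the near-silent gene of complex I.

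In Set2 males the X-linked subunit genes fell together. All 11 of those tested were below their yw level and 10 fell, with a median log2 fold change of -0.31. Of all 2016 X-linked genes tested 40.7% fell in males, 63.9% were below 0, and the median was -0.12. In females the X-linked members lay on both sides of 0, 6 above and 5 below, with a median of 0.01 and 2 that fell, a count that was 1 in all fits without a single female library other than yw female replicate 3. Over the 62 subunit genes 9 rose and 21 fell in males, 48.4% against 44.9% of all genes called. In females 6 rose and 12 fell, 29% against 42.4% of all genes called.

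COX6B, an intermembrane-space subunit of complex IV (FBgn0031066, arm X), had the largest fall. It stood at 104, 90.4 and 91.8 CPM in Set21 males against 148, 148 and 139.8 in yw males (-0.61 ± 0.0409, adjusted p = 1.02e-12). Female levels were 112, 116 and 117 CPM against 149, 141 and 139.8 (-0.31 ± 0.0407, adjusted p = 3.83e-07). Libraries did not overlap in either sex, and the fall was larger in males by the test of the difference (-0.29 ± 0.0576, adjusted p = 0.00174). COX6B was also lower in the H3.3WTH3.2HWT control than in yw (-0.16, adjusted p = 7.25e-05). UQCR-14, of complex III (FBgn0030733, arm X), had 42.2, 37.4 and 36.5 CPM in Set21 males against 50.5, 52.3 and 47.1 (-0.37 ± 0.0521, adjusted p = 1.29e-06). Among females it had 46.1, 46.2 and 46.6 CPM against 53.5, 51.3 and 49.2 (-0.15 ± 0.0519, adjusted p = 0.0215). It was called in both sexes, but the female call was lost without any single Set21 female library and without yw female replicate 1 or 2 (adjusted p up to 0.131). The sex difference did not pass the test (-0.22 ± 0.0735, adjusted p = 0.121).

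Other X-linked members fell in males with no call in females. ND-B16.6, the counterpart of mammalian GRIM-19 (FBgn0029868, arm X), stood at 51.3, 49.3 and 49.9 CPM in Set21 males against 65.4, 64.8 and 61.8 (-0.35 ± 0.0367, adjusted p = 6.68e-09). Its female libraries, at 63.4, 66.04 and 62.8 CPM against 63.1, 63.6 and 62.6, overlapped (0.02 ± 0.0366, adjusted p = 0.674). ND-24, an iron-sulfur subunit of the arm that oxidises NADH (FBgn0030853, arm X), had 42.8, 40.96 and 41.6 CPM against 52.4, 53.3 and 49.8 in males (-0.31 ± 0.0364, adjusted p = 5.16e-08). For females the levels were 49.5, 52.1 and 53.6 CPM against 49.3, 49.5 and 47.4 (0.09 ± 0.0364, adjusted p = 0.0544). Thus Set21 males of both genes lay wholly below yw males, and Set21 females did not lie below yw females.

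ATPsyndelta (FBgn0028342, arm X) had 106, 101 and 94.3 CPM in Set21 males against 130.0, 129.7 and 122 (-0.34 ± 0.0377, adjusted p = 2.16e-08). Its female libraries overlapped, at 119, 126 and 121 CPM against 127, 122 and 119.9 (-0.01 ± 0.0376, adjusted p = 0.862). ND-ASHI, an accessory subunit of complex I (FBgn0029888, arm X), had 32.2, 29.9 and 29.01 CPM against 38.6, 38.5 and 36.2 in males (-0.31 ± 0.0434, adjusted p = 8.72e-07). Its female libraries overlapped as well, with a change of 0.01 (adjusted p = 0.932). ND-20, a core iron-sulfur subunit (FBgn0030718, arm X), had 61.7, 54.6 and 53.6 CPM against 62.9, 64.3 and 63.3 in males (-0.16 ± 0.0451, adjusted p = 0.00371). In females ND-20 had 67.9, 69.9 and 66.2 CPM against 64.5, 62.3 and 62.4, higher without overlap but short of a call (0.11 ± 0.045, adjusted p = 0.0542). Also called lower in males were ND-75 (-0.23), ND-B18 (-0.21) and ND-B14.5A (-0.18), while ND-18 was at -0.12 (adjusted p = 0.0889). Without Set21 male replicate 2 or 3 the male calls of ND-20, ND-B18 and ND-B14.5A were lost, with adjusted p-values of up to 0.0713, 0.0983 and 0.314. Those of ND-20 and ND-B14.5A were lost on the compared libraries alone too, and that of ND-B14.5A also with no filter, with the replicate block and without yw male replicate 1 or 2.

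The test of the male minus female Set2 response called 8 of 62 subunit genes, against 3.43% of all genes. The 6 lower in males were the X-linked ND-24, ND-B16.6, ATPsyndelta, ND-ASHI, COX6B and ND-20, and the 2 higher in males were the members on chromosome 4. Of the 49 on arms 2L, 2R, 3L and 3R, 0 were called, with a median of -0.01. Of all X-linked genes 14.4% were lower by this test, and of 105 chromosome 4 genes 35.2% were higher. Leaving out any 1 library of the male comparison kept all 11 X-linked members below 0 and called 7 to 10 of them. The 7 were found without Set21 male replicate 2 or 3.

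Chromosome 4, a small and largely heterochromatic autosome, holds ND-49 and ATPsynbeta. ND-49, a core subunit of complex I, stood at 172, 158 and 157 CPM in Set21 males against 122, 127 and 126 (0.38 ± 0.0302, adjusted p = 4.05e-11). Its female levels of 129, 123 and 128 CPM overlapped with 124, 119 and 126 in yw (0.04 ± 0.0302, adjusted p = 0.3). ND-49 thus rose in males, with no call in females. ATPsynbeta had 1027, 903 and 937 CPM in Set21 males against 892, 907 and 876 (0.10 ± 0.0334, adjusted p = 0.0148), and the libraries overlapped. Among females it had 731, 694 and 734 CPM against 907, 870.4 and 883 (-0.30 ± 0.0334, adjusted p = 2.61e-08). The male call was lost with TMM factors from autosomal genes, on the compared libraries alone, and without Set21 male replicate 1 or yw male replicate 3 (adjusted p up to 0.179). Of all chromosome 4 genes 27.6% rose and 20% fell in males, and 12.4% rose and 61% fell in females.

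**Figure D3:**
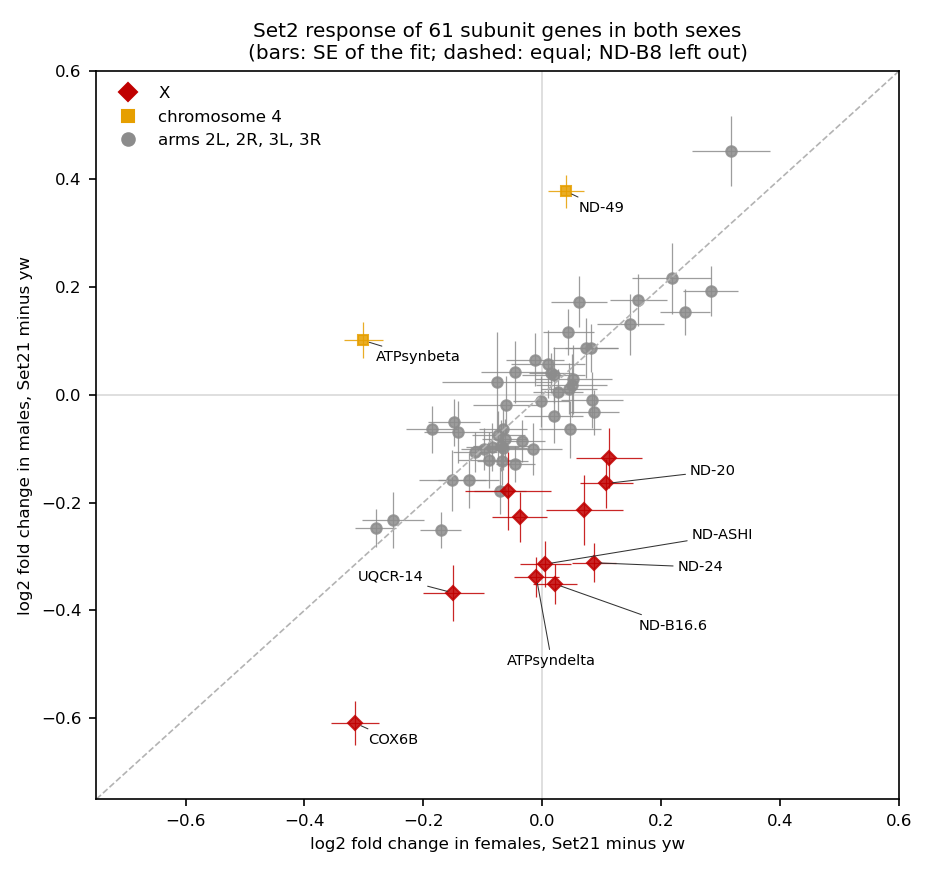
Set2 response, Set21 minus yw, as log2 fold change in females (x axis) and males (y axis), with the SE as bars, for 61 subunit genes (ND-B8 left out). X-linked genes (red diamonds) all lie below 0 on the male axis, and the chromosome 4 genes (orange squares) lie above the line of equal response.

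On the large autosome arms the Set2 response went both ways. In males 7 of 49 rose and 11 fell, with a median of -0.03, and in females 6 rose and 9 fell, with a median of -0.02. The background was 24.5% of all 9962 genes on these arms higher in males with 18.3% lower, while the female shares were 22% higher with 20.9% lower. The male median was -0.06 without Set21 male replicate 1 and 0.02 without Set21 male replicate 2, a change of sign. The rises were of complex I apart from COX8 in males. The male count of falls depended on single libraries, being 17 without Set21 male replicate 1 and 5 without Set21 male replicate 2 or 3. Without yw male replicate 1 it was 7, and without yw male replicate 2 it was 6. The female count was 5 without Set21 female replicate 1 or 2 or yw female replicate 2, and 4 without yw female replicate 1. Fitted on the compared libraries alone, 19 rather than 30 subunit genes were called in males.

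In both sexes 5 members rose, all of complex I and all accessory subunits. That is 8.06% of 62, against 16.1% of all genes higher in both sexes. ND-B14 stood at 29.97, 27.9 and 27.2 CPM in Set21 males against 19.5, 22.003 and 20.6 (0.45 ± 0.0653, adjusted p = 1.72e-06). Female libraries had 25.4, 25.7 and 27.1 CPM against 21.3, 20.6 and 20.9 (0.32 ± 0.0653, adjusted p = 0.000254). This was the largest called rise in each sex, without overlap. ND-B17.2 had 44.03, 38.3 and 43.2 CPM against 37.6, 36.5 and 35.7 in males (0.19 ± 0.0468, adjusted p = 0.00126) and 44.5, 41.8 and 42.3 against 36.6, 35.7 and 33.4 in females (0.28 ± 0.0469, adjusted p = 1.59e-05), again without overlap. ND-13A, ND-39 and ND-B14.5B rose by 0.15, 0.18 and 0.22 in males and by 0.24, 0.16 and 0.22 in females. ND-B14.5B lost its male call without Set21 male replicate 1 (adjusted p = 0.062), and its female call without Set21 or yw female replicate 3 (adjusted p up to 0.0981).

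Another 8 members fell in both sexes, 12.9% of 62 against 15.9% of all genes lower in both sexes. They included ATPsynC and ATPsynD of the ATP synthase and SdhC, a membrane anchor of complex II. ATPsynC had 948, 837 and 838 CPM in Set21 males against 1036, 1058 and 1018 (-0.25 ± 0.035, adjusted p = 1.35e-06). The female levels were 851, 854 and 860.2 CPM against 1049, 1033 and 1033 (-0.28 ± 0.035, adjusted p = 2.17e-07). Neither sex overlapped with its control. ATPsynD, of the peripheral stalk, had 159, 146 and 144.4 CPM against 178, 186 and 172 in males (-0.25 ± 0.0341, adjusted p = 6.6e-07) and 157, 155 and 155 against 178, 177 and 169.7 in females (-0.17 ± 0.0341, adjusted p = 0.000181). SdhC had 39.6, 36.4 and 38.1 CPM against 45.4, 45.7 and 42.99 in males (-0.23 ± 0.0523, adjusted p = 0.000577) and 36.8, 36.3 and 40.1 against 47.3, 43.9 and 43.5 in females (-0.25 ± 0.0523, adjusted p = 0.000298). The others were ND-ACP, ND-B17, COX5A, COX6B and UQCR-14. The calls of ND-ACP, ND-B17 and COX5A were lost in both sexes without single libraries, Set21 male replicate 2 or 3, yw male replicate 2, Set21 female replicate 1 or 2 and yw female replicate 1 or 2 each ending all 3 calls of its sex. Their adjusted p-values then reached at most 0.25, 0.289 and 0.248. SdhA, the flavoprotein of complex II, was called in females (-0.19 ± 0.0442, adjusted p = 0.00119) and not in males (-0.06 ± 0.0442, adjusted p = 0.25). COX8 rose in males (0.17 ± 0.0469, adjusted p = 0.00344), but not with the compared libraries fitted alone (adjusted p = 0.0662). ND-B12 rose in females (0.15 ± 0.0565, adjusted p = 0.0356), but not without Set21 female replicate 2 or yw female replicate 3 (adjusted p up to 0.203).

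H3.2K36R lowered genes of every complex by small amounts. In males 0 of 62 rose and 14 fell, 22.6% against 25.4% of all genes called, with a median of -0.05 and 49 below 0. In females 0 rose and 21 fell, 33.9% against 24.8% of all genes called, with a median of -0.10 and 56 below 0. These shares count calls in either direction. Over all 12167 genes 1493 rose and 1598 fell in males, and 1351 rose and 1667 fell in females. The medians over all genes were 0.003 and -0.001, and the SE of a difference between group medians of the subunit genes was 0.0336. The male count of calls was 8 without H3.3WTH3.2HWT male replicate 1. The female count was 10 without H3.3WTH3.2HWT female replicate 1 and 11 without H3.3WTH3.2K36R female replicate 3.

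**Figure D4:**
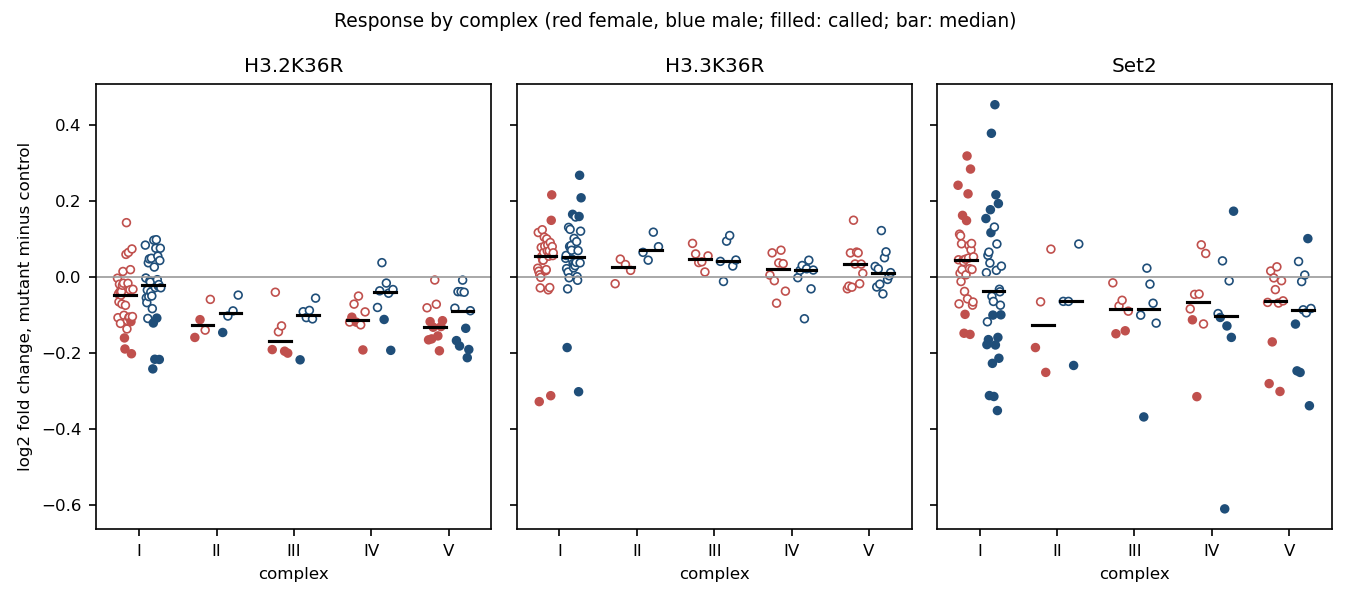
Log2 fold change (y axis, mutant minus control) of the tested subunit genes without ND-B8, by complex (x axis), for each mutant (panels). Red is female and blue male, filled points are called, and bars are medians. All complex V genes lie below 0 in H3.2K36R, and the called genes of H3.3K36R are counted in complex I by symbol.

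In complex V all 11 genes were below 0 in both sexes, with 5 called in males and 8 in females and medians of -0.09 and -0.13. ATPsynbeta stood at 722, 709 and 726 CPM in mutant males against 836, 845 and 818 (-0.21 ± 0.0334, adjusted p = 1.8e-05). Female libraries held 753, 740.4 and 734 CPM against 873, 839 and 837 (-0.19 ± 0.0334, adjusted p = 7.2e-05). Mutant libraries lay below the controls in both sexes, as they did for ATPsynC and ATPsynD. ATPsynC had 862, 854 and 892 CPM against 983, 984 and 960.0 in males (-0.17 ± 0.035, adjusted p = 0.000639) and 886, 893 and 876 against 1018, 983 and 977 in females (-0.17 ± 0.035, adjusted p = 0.000838). ATPsynD had 144.1, 148 and 149.9 CPM against 167, 168 and 166 in males (-0.18 ± 0.0341, adjusted p = 0.000184) and 148, 146 and 146 against 173, 161 and 159 in females (-0.16 ± 0.0341, adjusted p = 0.000742). ATPsyndelta and ATPsynO, of the central and peripheral stalks, also fell in both sexes, by 0.19 and 0.13 in males and 0.13 and 0.15 in females. Without H3.3WTH3.2HWT female replicate 1 both female calls were lost, that of ATPsyndelta at an adjusted p of 0.051. ATPsynO also lost a call without H3.3WTH3.2K36R female replicate 3, H3.3WTH3.2HWT male replicate 1 or H3.3WTH3.2K36R male replicate 2 (adjusted p up to 0.157).

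In complex I 5 of 33 genes fell in males and 5 in females, with medians of -0.02 and -0.05. ND-MLRQ stood at 61.5, 62.5 and 60.9 CPM in mutant males against 72.7, 70.6 and 71.8 (-0.22 ± 0.05, adjusted p = 0.00169). Female levels of ND-MLRQ were 63.8, 62.2 and 66.004 CPM against 76.7, 69.4 and 74.9 (-0.20 ± 0.0499, adjusted p = 0.00348). ND-AGGG, an accessory subunit with the largest called fall in males, had 23.004, 20.6 and 22.9 CPM against 27.8, 25.2 and 25.7 (-0.24 ± 0.0524, adjusted p = 0.000922). Mutant and control libraries overlapped for neither gene in these comparisons. ND-ACP, the mitochondrial acyl carrier protein, fell in females, at 64.8, 62.3 and 62.7 CPM against 71.5, 71.01 and 69.7 (-0.16 ± 0.039, adjusted p = 0.00303).

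Complexes II, III and IV had 1, 1 and 2 falls in males and 2, 3 and 3 in females, and every member of complexes II and III was below 0 in both sexes. UQCR-11, a small subunit of complex III, stood at 47.6, 51.8 and 52.2 CPM in mutant males against 59.3, 61.04 and 55.9 (-0.22 ± 0.0486, adjusted p = 0.00122). Its female levels were 51.9, 55.99 and 52.8 CPM against 64.4, 60.5 and 58.5 (-0.19 ± 0.0485, adjusted p = 0.00435). The libraries of UQCR-11 overlapped in neither sex. COX7C, of complex IV, had 52.7, 56.2 and 58.9 CPM against 66.98, 61.8 and 62.9 in males (-0.19 ± 0.0511, adjusted p = 0.00561) and 55.7, 58.1 and 55.9 against 66.9, 63.7 and 63.2 in females (-0.19 ± 0.0511, adjusted p = 0.00625). UQCR-Q (-0.20 ± 0.0523, adjusted p = 0.00544) and the core protein UQCR-C2 (-0.20 ± 0.0576, adjusted p = 0.0133) were called in females. UQCR-C2 was not called on the compared libraries alone, nor without replicate 1 of either female group, with an adjusted p of up to 0.0988.

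The male minus female H3.2K36R response was called for 0 of 62 subunit genes by edgeR, against 0.0658% of all genes, with 2 at an unadjusted p under 0.05 and 0 by DESeq2. In both sexes 12 members fell, 19.4% of 62 against 8.89% of all genes lower in both sexes. They were ND-AGGG, ND-MLRQ, ND-B16.6, SdhA, UQCR-11, COX6B, COX7C, ATPsynC, ATPsynD, ATPsynbeta, ATPsynO and ATPsyndelta. The calls of ND-MLRQ, UQCR-11, COX7C, ATPsynC, ATPsynD and ATPsynbeta held in both sexes under every alternative run, each single library left out included. SdhA lost a call without H3.3WTH3.2HWT male replicate 1, H3.3WTH3.2HWT female replicate 2 or H3.3WTH3.2K36R female replicate 3 (adjusted p up to 0.0608). ND-AGGG lost its female call without H3.3WTH3.2HWT female replicate 3 (adjusted p = 0.0552). COX6B lost its calls with no filter, with the replicate block and without each of 5 of 6 libraries in each sex (adjusted p up to 0.11). ND-B16.6 lost both calls on the compared libraries alone and without H3.3WTH3.2HWT replicate 1 or H3.3WTH3.2K36R replicate 2 of the sex concerned. Its female call was also lost under DESeq2, with its size factors, with no filter and without H3.3WTH3.2K36R female replicate 1 or 3 (adjusted p up to 0.213). Markers of neural stem cells were lower in the same libraries. Their summed level was 7677, 7844 and 7344 CPM in mutant males against 12191, 14777 and 14987 in controls. In females it was 9805, 9677 and 10881 CPM against 12884, 14829 and 15188. Of the 6 stem cell markers 4 fell in males and 5 in females, and of 6 neuronal markers 0 were called in either. For these and the following markers, 25.4% of all genes were called in males and 24.8% in females, in either direction. Hemocyte markers fell in 2 of 6 genes in each sex, disc markers in 2 of 6 in each sex, and ring gland markers in 1 of 6 in males and 3 in females. Going the other way, 5 of 6 germline markers and 1 of 3 tested testis and sperm markers were called higher in each sex. In females 1 of 6 disc and 1 of 6 salivary gland markers were called higher too. Of 5 glial markers 1 rose and 1 fell in males, and 1 fell in females. In each sex 1 of 6 muscle markers fell. Fat body markers summed to 743, 549.8 and 525 CPM in mutant males against 1172, 1229.8 and 825 in controls, with 1 of 6 called lower. Muscle markers summed to 74.6, 38.7 and 38.1 CPM in mutant males and 86.4, 36.6 and 34.1 in mutant females, replicate 1 being the highest in each. The part of these cell types in the subunit result was not tested.

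In H3.3K36R few subunit genes were called, and all of them are counted in complex I by their ND- symbols, as are 33 of the 62 tested. They include ND-MLRQ, whose mammalian counterpart is assigned to complex IV. In males 4 of 62 rose and 2 fell, 9.68% against 9.96% of all genes called, with a median of 0.04. In females 2 rose and 2 fell, 6.45% against 6.35% of all genes called, with a median of 0.04. The male count was 3 without H3.3K36RH3.2HWT male replicate 2, and the male median was -0.01 without H3.3CtrlH3.2HWT male replicate 3. The female count was 2 without H3.3K36RH3.2HWT female replicate 3, and 2 on the compared libraries alone. Fat body markers summed to 1165, 1169.7 and 1111 CPM in mutant males against 922, 896 and 974 in controls, and to 1412, 1371 and 1369 in mutant females against 1088, 1227 and 1094. These sums were higher without overlap in both sexes, but only 1 of the 6 markers was called higher in each. The median log2 fold change of the 6 was below 0, at -0.19 in males and -0.52 in females. Salivary gland markers fell in 3 of 6 genes in males, and neural stem cell markers in 0. The part of these tissues in the subunit result was not tested.

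ND-MLRQ was called higher in both sexes of H3.3K36R. Male levels were 79.1, 82.1 and 87.5 CPM against 71.4, 70.3 and 65.1 in H3.3CtrlH3.2HWT (0.27 ± 0.0499, adjusted p = 0.000455). Female levels were 85.4, 74.1 and 88.5 CPM against 69.6, 69.1 and 74.9, with overlap (0.22 ± 0.0498, adjusted p = 0.00515), and the female call was lost without H3.3K36RH3.2HWT female replicate 3 and on the compared libraries alone (adjusted p up to 0.225). ND-B22, an accessory subunit, rose by 0.16 in males (adjusted p = 0.013) and 0.15 in females (adjusted p = 0.0267). ND-ACP (0.16 ± 0.039, adjusted p = 0.0053) and ND-SGDH (0.21 ± 0.0642, adjusted p = 0.0356) rose in males. The calls of ND-B22, ND-ACP and ND-SGDH were lost on the compared libraries alone, and each was also lost in males without H3.3CtrlH3.2HWT male replicate 3, with adjusted p-values of up to 0.159, 0.0994 and 0.289. ND-B22 also lost its male call without H3.3K36RH3.2HWT male replicate 2, and its female call without 5 of the 6 single libraries, all but H3.3CtrlH3.2HWT female replicate 2 (adjusted p up to 0.127). ND-SGDH was also lost with no filter, with the replicate block and without H3.3CtrlH3.2HWT male replicate 2 or H3.3K36RH3.2HWT male replicate 1 or 2.

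The genes that fell were the X-linked ND-18 and ND-B18. ND-18, the counterpart of mammalian NDUFS4 (FBgn0031021, arm X), stood at 36.98, 35.4 and 33.2 CPM in mutant males against 40.4, 41.2 and 38.4 (-0.19 ± 0.0559, adjusted p = 0.0314). In mutant females ND-18 stood at 30.4, 29.7 and 29.99 CPM against 35.9, 40.3 and 36.9 (-0.33 ± 0.056, adjusted p = 0.000176). ND-B18 (FBgn0030605, arm X) had 23.5, 26.6 and 25.1 CPM against 33.8, 30.3 and 28.5 in males (-0.30 ± 0.0646, adjusted p = 0.00204). Its female levels were 21.6, 21.9 and 22.2 CPM against 25.6, 28.4 and 27.6 (-0.31 ± 0.0647, adjusted p = 0.00186). Mutant libraries of both genes lay below the controls without overlap in each sex. The male call of ND-18 was lost without H3.3CtrlH3.2HWT male replicate 1 or 2, or H3.3K36RH3.2HWT male replicate 2 or 3, with an adjusted p of up to 0.146. The male minus female response was called for 0 of 62 subunit genes by edgeR, against 0.181% of all genes, with 0 at an unadjusted p under 0.05 and 0 by DESeq2.

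The sex-averaged responses were also tested against each other. Between H3.2K36R and H3.3K36R, 2 of 62 were higher and 30 lower in the former, 51.6% against 28.7% of all genes called, with a median of -0.11. ND-MLRQ, which fell in H3.2K36R and rose in H3.3K36R, differed by -0.45 ± 0.0499 (adjusted p = 5.63e-08). UQCR-11 (-0.27 ± 0.0485, adjusted p = 0.000103), ND-ACP (-0.24 ± 0.039, adjusted p = 2e-05) and ATPsynbeta (-0.19 ± 0.0334, adjusted p = 6.91e-05) were also lower in H3.2K36R, as were 9 of the 11 complex V genes in all. Between H3.2K36R and Set2, 5 were higher and 12 lower in the former, 27.4% against 41.4% of all genes called. COX6B was higher in H3.2K36R (0.35 ± 0.0407, adjusted p = 6.8e-08) and ND-49 lower (-0.22 ± 0.0302, adjusted p = 8.79e-07). Between H3.3K36R and Set2, 27 were higher and 7 lower in the former, 54.8% against 42.6% of all genes called. COX6B (0.37 ± 0.0407, adjusted p = 2.02e-08), SdhC (0.32 ± 0.0522, adjusted p = 1.54e-05) and ATPsynC (0.24 ± 0.035, adjusted p = 2.9e-06) were among the higher.

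Within groups the subunit genes varied together from library to library. With group means taken out, the correlation of a gene with the mean of the other subunit genes over 36 libraries had a median of 0.766. It ran from -0.369 for ND-B8 and 0.018 for ND-AGGG to 0.906 for COX5B and 0.909 for ATPsynB. These values are a description over libraries that share their scaling. Set21 male replicate 1 was high in the subunit sum and also in glycolysis genes, with Tpi, triose phosphate isomerase, at 113, 64.7 and 63.5 CPM in the Set21 males.

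The testis-type paralogs were nearly silent in these brains. The 11 that passed the filter reached at most 0.736 CPM in any library, and the other 11 had from 4 to 125 reads over all 36 libraries. Genes could pass through the group in which they were high, so single genes are described and no count is read. SdhCL, a paralog of the complex II anchor SdhC, had 32, 16 and 27 reads in H3.3WTH3.2K36R males, 0.298, 0.189 and 0.302 CPM, and 0 in each H3.3WTH3.2HWT male. With 3 reads a library as the floor, it was at least 10-fold higher. In females 74 mutant reads stood against 2, and with the same floor SdhCL was at least 7.84-fold higher. SdhCL passed the filter only through the H3.3WTH3.2K36R libraries, so these values are a description and no test is given. The floor covers counting error only, and since 79.2% to 85.1% of counts from 1 to 4 were even, reads may not be separate fragments. In the other genotypes SdhCL reached at most 0.0385 CPM in a library.

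**Figure D5:**
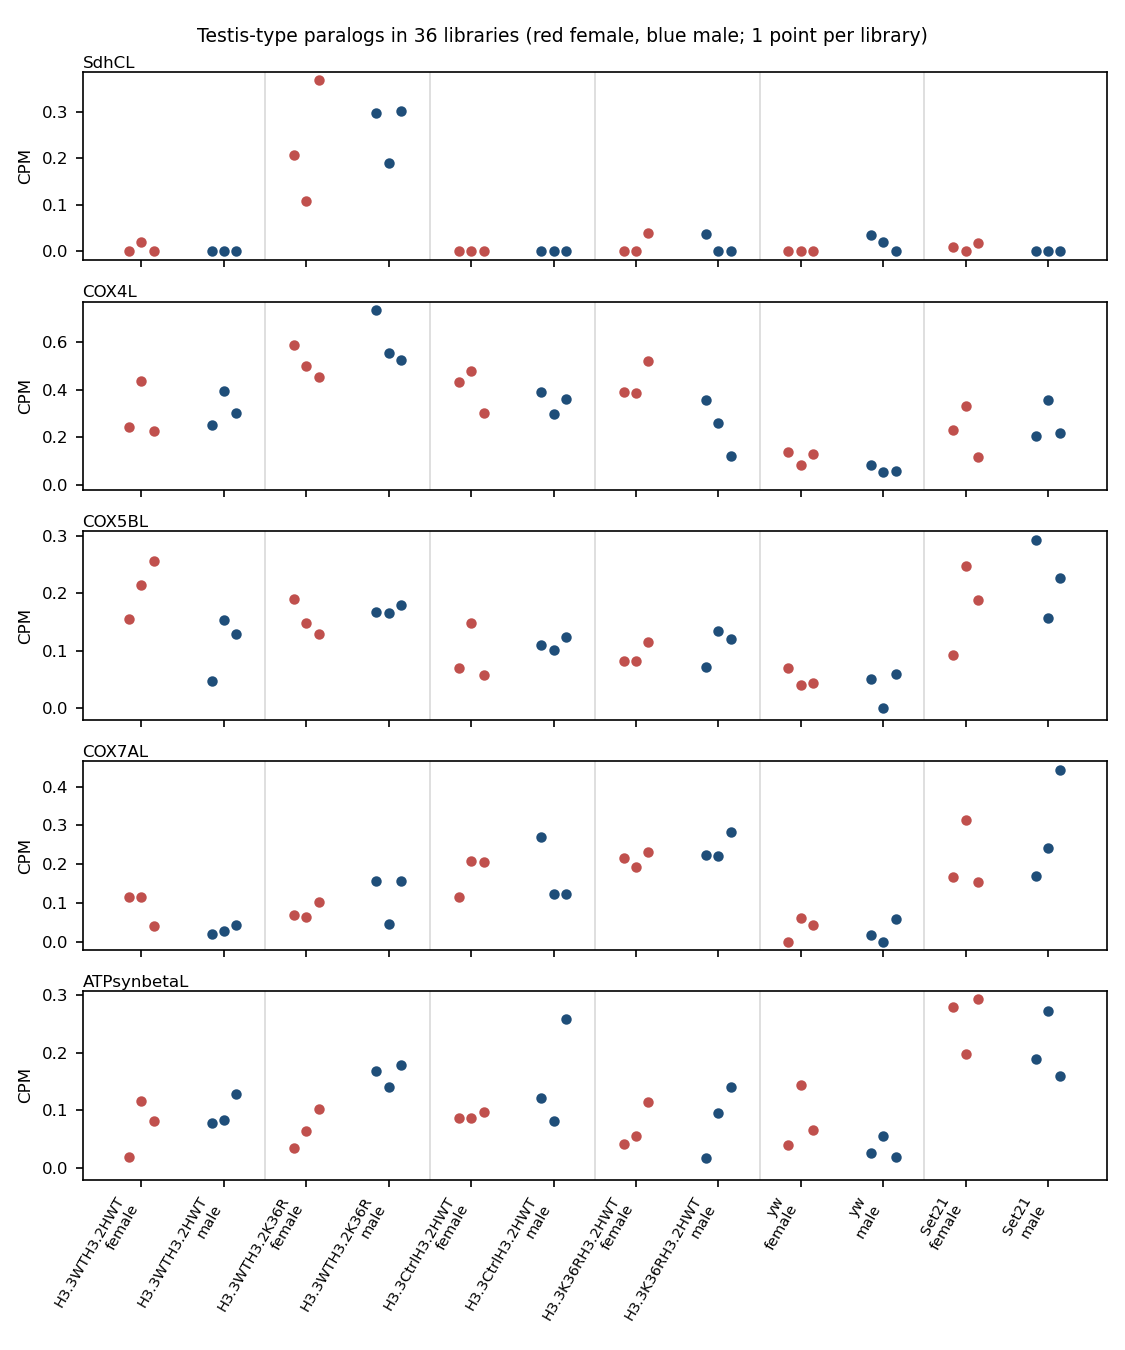
CPM (y axes) of 5 testis-type paralogs in each library (points, red female, blue male) of the 12 groups (x axis). The 6 H3.3WTH3.2K36R libraries, at 0.107 to 0.369 CPM, stand above all others for SdhCL, and yw is low for COX4L and COX5BL.

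Among the tested paralogs, COX7AL, COX5BL, COX4L and ATPsynbetaL were higher in Set21 than in yw. COX7AL stood at 0.17, 0.241 and 0.443 CPM in Set21 males against 0.0173, 0 and 0.0601 (3.44 ± 0.701, adjusted p = 0.000192). COX5BL, which Trmt6 overlaps on the other strand, stood at 0.293, 0.157 and 0.226 CPM against 0.0518, 0 and 0.0601 (2.57 ± 0.555, adjusted p = 0.000383). ATPsynbetaL had 0.189, 0.272 and 0.16 CPM against 0.0259, 0.0553 and 0.02 (2.57 ± 0.627, adjusted p = 0.00132). All were below 0.5 CPM and without overlap in males. COX4L had 0.208, 0.356 and 0.217 CPM against 0.0864, 0.0553 and 0.0601 (1.92 ± 0.398, adjusted p = 0.000237). In females these genes rose by 2.56, 1.75, 1.60 and 0.94 in that order. COX4L lost its female call under DESeq2, with no filter on low counts, on the compared libraries alone, with the replicate block and without most single libraries, with an adjusted p of up to 0.288. ATPsynbetaL and COX5BL lost theirs without single libraries, at up to 0.123 and 0.0638. The yw control was itself low, since COX4L (1.78 ± 0.273, adjusted p = 6.64e-06) and COX5BL (1.77 ± 0.393, adjusted p = 0.000685) were higher in H3.3WTH3.2HWT than in yw.

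Weaker calls were those of COX7CL in Set2 females (-1.04 ± 0.381, adjusted p = 0.0287), ND-51L1 in H3.3K36R males (1.32 ± 0.406, adjusted p = 0.0352), and COX4L (0.93 ± 0.342, adjusted p = 0.0447) and COX7AL (1.99 ± 0.705, adjusted p = 0.0376) in H3.2K36R males. Each was lost without any of several single libraries, with adjusted p-values of up to 0.0898, 0.174, 0.168 and 0.123. The calls of COX4L and COX7AL were also lost with the replicate block and with no filter, and those of COX4L and ND-51L1 on the compared libraries alone. The controls of 2 of these calls also differed. ND-51L1 was lower (-1.05, adjusted p = 0.0101) and COX7AL higher (1.70, adjusted p = 0.0133) in H3.3CtrlH3.2HWT than in H3.3WTH3.2HWT. Mean ND-51L1 was 0.303 CPM in H3.3K36RH3.2HWT males, 0.119 in H3.3CtrlH3.2HWT males and 0.415 in H3.3WTH3.2HWT males. ND-51L2, SdhAL, UQCR-11L and COX7AL2 passed the filter and were called in none of the 6 mutant comparisons. Of 10 testis and sperm markers 3 passed the filter, and they summed to 10.3 to 17.04 CPM over all libraries. Of 6 germline markers 5 rose in H3.2K36R males and 5 in females, while 1493 and 1351 of all 12167 genes rose. Their sums were 69.1, 71.2 and 73.9 CPM in mutant males against 39.2, 25.2 and 27.7 in controls. All 6 were also higher in the H3.3WTH3.2HWT control than in yw. The part of germline RNA in the SdhCL result was not tested.

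Of 8 subunits with other kinds of names, H3.2K36R lowered 3 in males and 5 in females and raised 0. Set2 males showed 3 higher and 2 lower, and Set2 females 1 higher and 1 lower. blw, the alpha subunit of the ATP synthase, stood at 746, 784 and 798 CPM in H3.2K36R males against 893, 900.1 and 871 (-0.19 ± 0.0379, adjusted p = 0.000279). In Set2 males blw stood at 869, 789 and 766 CPM against 961, 969.6 and 945 (-0.25 ± 0.0379, adjusted p = 4.63e-06). It was lower without overlap in both. The X-linked sun, the epsilon subunit, fell in Set2 males (-0.41 ± 0.0574, adjusted p = 1.02e-06) with no call in females (-0.05 ± 0.0572, adjusted p = 0.506). ox, of complex III, rose in Set2 males (0.35 ± 0.0593, adjusted p = 1.74e-05) and females (0.29 ± 0.0593, adjusted p = 0.000281). H3.3K36R males showed 1 higher and 1 lower, and H3.3K36R females 0 of either kind. For this list and those below, the background is the share of all genes called. It was 25.4% in H3.2K36R males and 24.8% in females, 44.9% and 42.4% in Set2, and 9.96% and 6.35% in H3.3K36R.

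TCA cycle enzymes supply the chain with electrons. The called rises and falls among 13 such genes numbered 0 and 6 in H3.2K36R males, 1 and 9 in H3.2K36R females, 2 and 7 in Set2 males, and 1 and 7 in Set2 females. The medians were -0.11, -0.14, -0.16 and -0.16. In the same order, 25.4%, 24.8%, 44.9% and 42.4% of all genes were called in either direction. mAcon1, mitochondrial aconitase, fell in H3.2K36R males (-0.16 ± 0.0348, adjusted p = 0.00108) and Set2 females (-0.29 ± 0.0348, adjusted p = 1.36e-07). Pdha, of pyruvate dehydrogenase, fell in Set2 males (-0.47 ± 0.0402, adjusted p = 1.81e-10) and females (-0.59 ± 0.0402, adjusted p = 1.62e-12). In H3.3K36R the counts were 0 and 2 in males and 1 and 0 in females.

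Of 12 glycolysis genes 0 rose in any of the 6 mutant comparisons. In H3.2K36R 3 fell in males and 3 in females, in Set2 5 and 10, and in H3.3K36R 0 and 0. The medians in males and females were -0.36 and -0.37 in H3.2K36R, -0.34 and -0.52 in Set2, and 0.35 and 0.04 in H3.3K36R. Over all 12167 genes 1598 and 1667 fell in H3.2K36R males and females, 2674 and 2612 in Set2, and 496 and 353 in H3.3K36R. Tpi stood at 62.7, 54.8 and 65.3 CPM in Set21 females against 129, 109 and 114 (-0.95 ± 0.181, adjusted p = 0.000102). Eno, enolase, fell in H3.2K36R females (-0.36 ± 0.0977, adjusted p = 0.00664) and Set2 females (-0.45 ± 0.0977, adjusted p = 0.000474).

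Cytochrome c, which links complexes III and IV, is encoded by Cyt-c-p and by Cyt-c-d, the latter known for its role in testis. Cyt-c-p stood at 64.9, 61.6 and 68.6 CPM in Set21 females against 92.3, 83.1 and 78.4 (-0.38 ± 0.0916, adjusted p = 0.00134). Cyt-c-d stood at 0.378, 0.314 and 0.358 CPM in Set21 males against 0.0518, 0.0921 and 0.02 (2.64 ± 0.48, adjusted p = 4.74e-05). Of 8 assembly factors 3 rose and 2 fell in Set2 males, 1 and 1 in Set2 females, 1 and 2 in H3.2K36R males, 1 and 0 in H3.2K36R females, and 2 and 0 in H3.3K36R males. Surf1, needed to assemble complex IV, fell in Set2 males (-0.41 ± 0.075, adjusted p = 5.42e-05) and females (-0.38 ± 0.0749, adjusted p = 0.000179). Among 72 genes of the mitochondrial ribosome the rises and falls numbered 4 and 5 in H3.2K36R males, 0 and 14 in H3.2K36R females, 13 and 15 in Set2 males, and 11 and 10 in Set2 females. The shares of all genes called were 25.4%, 24.8%, 44.9% and 42.4% in the same order. Of 6 genes for mitochondrial DNA upkeep, mtSSB fell in Set2 females (-0.36 ± 0.062, adjusted p = 2.95e-05) and PolrMT rose in Set2 males (0.19 ± 0.0464, adjusted p = 0.00112). Of 7 regulators 4 fell in Set2 males and 5 in Set2 females, among them crc, the ATF4 homologue (-0.26 and -0.28), and foxo (-0.34 and -0.33). Falls over all 12167 genes numbered 2674 in Set2 males and 2612 in Set2 females.

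Markers were used to check the tissue. Over all libraries, 6 neuronal markers summed to 2927 to 3852 CPM, 6 neural stem cell markers to 7344 to 16678, 5 glial markers to 494 to 737 and 6 fat body markers to 525 to 1412. In Set2 4 of 6 neuronal markers fell in males and 3 in females, and 3 and 3 of 6 stem cell markers. Of all genes 44.9% were called in Set2 males and 42.4% in Set2 females, in either direction. The neuronal sum was 2927, 3128 and 3254 CPM in Set21 males against 3488, 3759 and 3852 in yw males, and 3150.2, 3301 and 3257 in Set21 females against 3694, 3809 and 3847 in yw females. Fat body markers fell in 3 of 6 genes in Set2 females and 1 in males, and muscle markers in 2 of 6 in each sex. Ring gland markers rose in 4 of 6 genes in males and 0 in females. Of 5 glial markers 2 rose and 1 fell in each sex, and of 6 germline markers 2 rose in each sex and 1 fell in females. The part of these cell types in the Set2 result was not tested.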

How the data were processed

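Raw counts of reads per gene were deposited for 36 libraries, and per the submitters' processing notes STAR 2.7.2a and Subread 2.0.3 were used, with the build, annotation and strand setting not given in the material used. Per the labels' protocols, RNA was extracted with Trizol, treated with DNase I and made into stranded poly(A)-selected libraries. Gene symbols and chromosome arms came from Ensembl release 115, which matched 17527 of 17606 identifiers (the other 79 held 0.401% of reads), and no coordinates were used in the text. Groups follow the genotype and sex in the labels. Genes were kept by edgeR's filterByExpr with a minimum count of 10, which left 12167. One quasi-likelihood fit over 12 group means (edgeR 4.0.16, limma 3.58.1, R 4.3.3, TMM factors of 0.97 to 1.05) gave 2-sided tests with 24 residual degrees of freedom, adjusted by Benjamini-Hochberg over all tested genes. The common biological coefficient of variation was 0.118. The steps were tested on simulated data.

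Alternatives were DESeq2 1.42.0, its size factors in edgeR, TMM factors from autosomal genes, no filter on low counts, a replicate block, fits on the compared libraries alone, and leaving out each library. Replicate numbers were taken as pairing the samples where every same-numbered pair correlated above 0.1 in its deviations from the group means, which held for H3.2K36R females alone, at 0.105 to 0.340. Even there, same-numbered libraries did not all correlate best with each other. Named genes were, per mutant comparison, up to 6 called members per direction with the smallest p and no overlap of libraries, the 3 largest called rises and falls, members called in both sexes or in a difference of responses, up to 4 per direction between controls, the highest and lowest level per complex, every tested paralog, and up to 3 per neighbouring list. Other genes named were chosen after their values were seen. The members and the lists were chosen with earlier results of these data known. Levels per kilobase divide CPM by the merged exon length of the annotation, which may differ from the one used for counting.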

Additional observations from a re-analysis of the deposited data

Results flagged for a closer look

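The Set2 response differed between males and females, by the edgeR test of the difference itself, in 8 subunit genes. The male minus female log2 difference was -0.3988 for ND-24, -0.3726 for ND-B16.6, -0.3284 for ATPsyndelta, -0.3197 for ND-ASHI, -0.2949 for COX6B and -0.2726 for ND-20, which are all X-linked. It was 0.4015 for ATPsynbeta and 0.337 for ND-49, the members on chromosome 4. Adjusted p-values ran from 4.81e-06 for ATPsynbeta to 0.00996 for ND-20.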

How the results depend on the processing

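Every called subunit gene and paralog in the 15 comparisons was followed, 255 calls, and none changed direction under any alternative run. Of these calls 99 were lost under some alternative or without a single library, 53 of them in an alternative other than a left-out library and 46 only without a single library. Of the neighbouring genes named, 22 calls were followed and 0 were lost. Among values without a call, that of ATPsyndelta, Set2 response, females, at -0.01, ran from -0.02267 without yw female replicate 3 to 0.01895 without yw female replicate 1, and was above 0 also without Set21 female replicate 1 (0.01504) or 3 (0.004424). That of ND-ASHI, Set2 response, females, at 0.01, ran from -0.006925 without yw female replicate 2 to 0.04477 without yw female replicate 1, and was -0.00218 without Set21 female replicate 1. Fitting the compared libraries alone gave 19 called subunit genes in Set2 males in place of 30, 2 in H3.3K36R females in place of 4, and 3 between H3.3CtrlH3.2HWT and H3.3WTH3.2HWT in place of 6. These fits use fewer libraries. All other counts stayed within 1.5 times under the alternatives that leave out no library of the comparison.

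With single libraries left out, the count of called subunit genes ran from 8 to 17 in H3.2K36R males, 10 to 21 in H3.2K36R females, 3 to 6 in H3.3K36R males, 2 to 5 in H3.3K36R females, 21 to 33 in Set2 males and 13 to 15 in Set2 females. It ran from 7 to 11 for the sex difference in Set2, 25 to 34 between H3.2K36R and H3.3K36R, and 2 to 6 between H3.3CtrlH3.2HWT and H3.3WTH3.2HWT. The cause was not tested. The replicate block gave 12 in H3.2K36R males, 20 in H3.2K36R females, 5 and 4 in H3.3K36R, 29 and 15 in Set2, and moved no count of calls by over 1.5 times. Among H3.2K36R females, where the numbers met the threshold for pairing, it gave 20 in place of 21.

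Fold changes of most called members were under 0.3 on the log2 scale, so calls near the threshold depend on 3 libraries a group. The paralogs rest on few reads, and the mitochondrial genome's own subunits are not described.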
